A study of Mus musculus with 16 samples.

Results

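The glucocorticoid receptor gene Nr3c1, the steroid-activating enzyme gene Hsd11b1 and 7 well-known targets of the receptor (Tsc22d3, Fkbp5, Zbtb16, Sgk1, Klf9, Pdk4 and Errfi1) were followed in alveolar type II (AT2) cells of newborn mice. These 9 genes were chosen by name, for their textbook place in the pathway, from 20725 genes measured on each array. Earlier results of these data were known when they were chosen. AT2 cells are the lung epithelial cells that make surfactant. RNA of these cells from pups on postnatal day 3 was labelled with Cy3 and hybridised to 16 single-colour microarrays. The groups were 4 wild-type and 4 Fgf10+/- samples kept in normoxia, and 6 wild-type and 2 Fgf10+/- samples kept in 85% oxygen from day 0 to day 3, called hyperoxia here. Fgf10+/- mice carry 1 inactive copy of Fgf10, a growth factor gene of the lung mesenchyme, in every cell. The sample titles give these group sizes, while the series text gives 4 per group; the titles were followed.

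The receptor waits in the cytosol, folded by a chaperone complex, until a glucocorticoid binds it. It then enters the nucleus and binds DNA, where it raises or lowers the transcription of many genes. In mice the main hormone is corticosterone, and the enzyme made by Hsd11b1 regenerates it inside cells from an inert form. In the lung around birth, glucocorticoids are known for maturing the epithelium, thinning the alveolar wall and supporting surfactant production.

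The receptor binds as a dimer to a pair of short inverted motifs. RefSeq promoter windows (GRCm38.p6) ran from 250 bases before to 50 after a start. For 7 of the 9 genes, all but Nr3c1 and Zbtb16, 15 windows were used. These were searched on both strands for ACANNNTGT, the core of the paired motif, which reads the same on both strands, and for the single motif AGAACA, which can overlap it. The core stood in 2 of 15 windows, both of Sgk1, against 6.85% of 32851 windows of all genes. The single motif stood in 4 of 15 windows, 3 of Sgk1 and 1 of Tsc22d3, against 19.0% of all windows. The Sgk1 window below (chr10:21993640-21993939, plus strand) is shown because it holds the paired motif in full, with the core beginning at base -186 from this start, 962 bases before the start of the last of 6 Sgk1 windows. The Tsc22d3 window (chrX:140600473-140600772, minus strand) holds 1 single motif at base -185. The Hsd11b1 window (chr1:193242311-193242610, minus strand) is shown because Hsd11b1 had the largest difference in oxygen among the 9 genes; neither motif was in it. Capitals mark every match, and each sequence runs 5′ to 3′ on the gene's strand. A match is a description of the letters and not a measured binding site.
Sgk1: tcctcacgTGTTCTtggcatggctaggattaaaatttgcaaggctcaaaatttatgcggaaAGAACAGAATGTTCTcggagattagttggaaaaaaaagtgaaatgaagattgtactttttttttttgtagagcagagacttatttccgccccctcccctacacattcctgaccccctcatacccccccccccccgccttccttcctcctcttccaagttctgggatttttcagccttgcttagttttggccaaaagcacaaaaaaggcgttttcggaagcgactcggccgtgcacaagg
Tsc22d3: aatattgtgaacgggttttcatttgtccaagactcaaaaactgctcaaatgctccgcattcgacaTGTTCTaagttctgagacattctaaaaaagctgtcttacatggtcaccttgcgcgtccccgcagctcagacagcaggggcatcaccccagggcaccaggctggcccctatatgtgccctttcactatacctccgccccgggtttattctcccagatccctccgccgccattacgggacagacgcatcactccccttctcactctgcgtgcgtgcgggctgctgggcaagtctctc
Hsd11b1: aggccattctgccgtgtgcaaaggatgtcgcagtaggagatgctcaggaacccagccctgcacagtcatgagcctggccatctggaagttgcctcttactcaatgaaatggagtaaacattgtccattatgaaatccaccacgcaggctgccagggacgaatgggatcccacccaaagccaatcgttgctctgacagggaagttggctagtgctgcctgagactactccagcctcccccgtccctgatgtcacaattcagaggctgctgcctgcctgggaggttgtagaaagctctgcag

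Values are log2 intensities as the authors deposited them, so a difference of 1 is a doubling, and levels of different genes are not set against each other. All 9 genes had a mean of 6 or more, as did 8299 of 20725 genes (40%). Arrays correlated with each other at r between 0.916 and 0.973. The AT2 marker Sftpc, surfactant protein C, was at 15.95 to 15.98 on all arrays, at the top of the range. Markers of other cell types were also measured: Scgb1a1 of club cells lay between 15.13 and 15.98, Col1a1 of fibroblasts between 10.76 and 12.63, Cd3e of T cells between 6.26 and 10.42, and Rag1 of thymocytes between 3.15 and 8.13. Fgf10 itself was dim, at 4.02 to 5.89, so it gives no check of the genotype labels. In bulk samples, fewer cells of a type and less RNA per cell cannot be told apart.

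**Figure D1:**
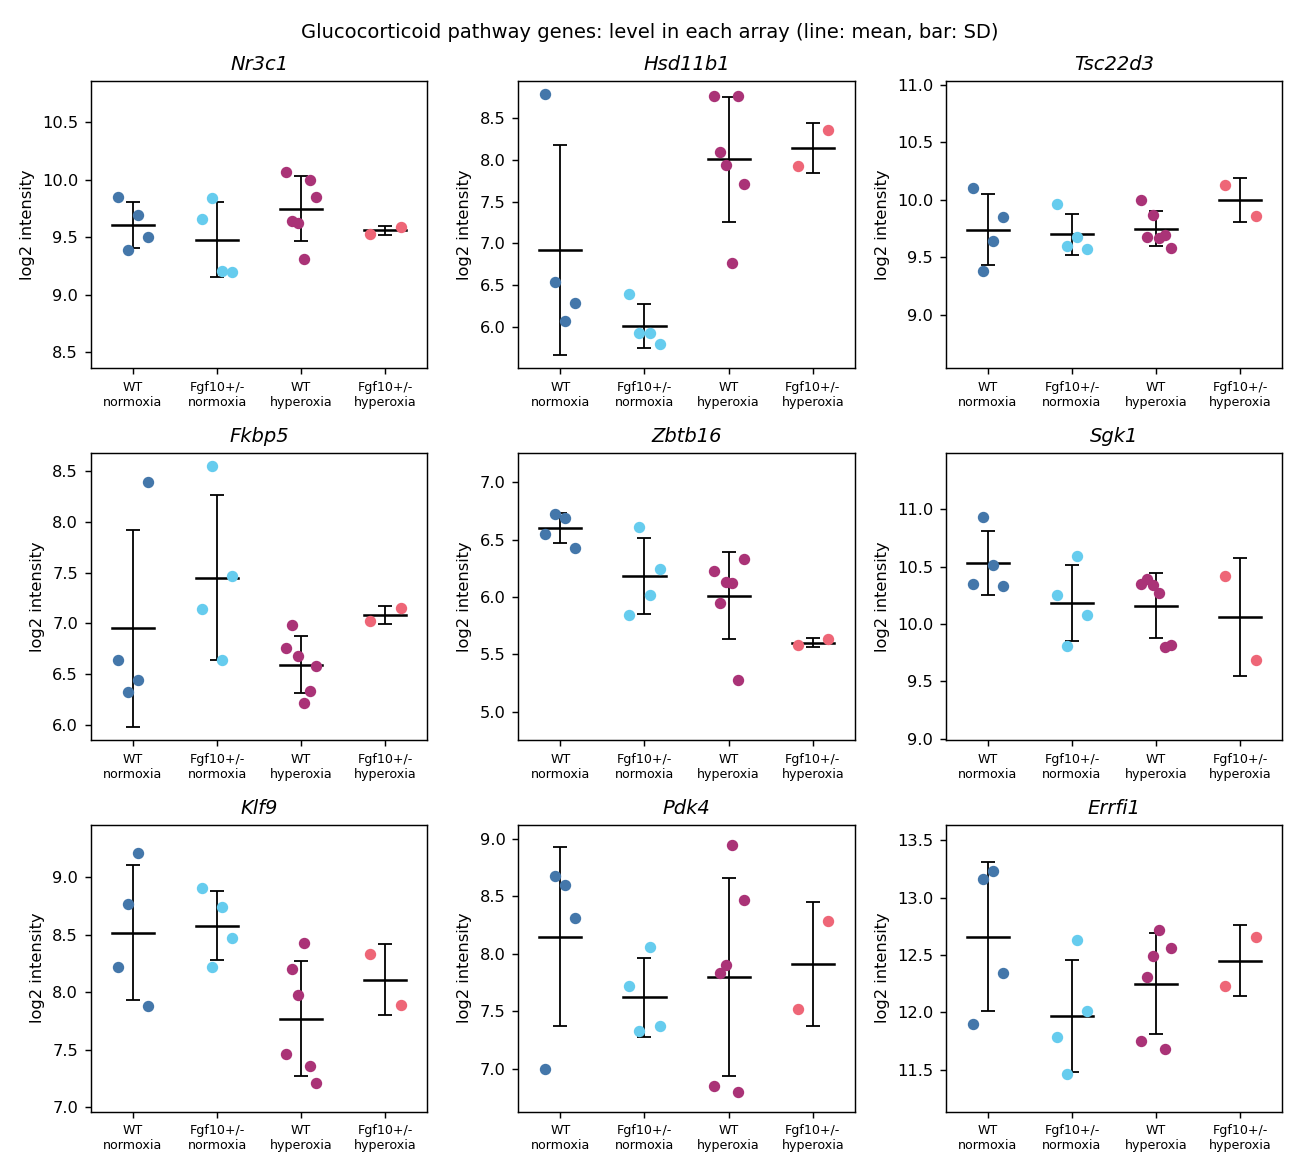
Level of each of the 9 genes (y axis, log2 intensity, own range per panel) in each of the 16 arrays (points), by genotype and oxygen; lines are group means and bars SDs. Within each genotype Hsd11b1 sat higher and Zbtb16 lower in hyperoxia, except that wild-type normoxia replicate 1 reached 8.79 for Hsd11b1. Across genotypes Zbtb16 overlapped, and Nr3c1 and Tsc22d3 overlapped across groups.

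Hyperoxia was compared with normoxia in each genotype and as the mean of both genotypes. In wild type 0 of 9 genes passed the test (limma, Benjamini-Hochberg adjusted p under 0.05 over all genes), while limma called 649 of 20725 genes, 3.13%. In Fgf10+/- 0 of 9 passed, against 2.45% of all genes. At an unadjusted p under 0.05, limma gave 1 gene higher and 2 lower in wild type (18.2% of all genes passed there in either direction) and 1 higher in Fgf10+/- (16.7% of all genes). In the mean of both genotypes 2 of 9 were called, Hsd11b1 higher and Zbtb16 lower, against 11.1% of all genes. The median difference of the 9 genes was -0.36 in wild type, 0.08 in Fgf10+/- and -0.03 in the mean of both, beside -0.08, -0.04 and -0.06 for all genes. The mean of both genotypes rests on the same arrays as the comparisons within each genotype. Which arrays were run together is not known, so an effect of slide or run cannot be told apart from oxygen.

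Nr3c1, the receptor itself, read 9.85, 9.39, 9.69 and 9.5 in wild-type normoxia and 9.66, 9.84, 9.21 and 9.20 in Fgf10+/- normoxia. In hyperoxia it lay between 9.31 and 10.07 with a median of 9.74 in the 6 wild-type samples and at 9.53 and 9.59 in Fgf10+/-. The groups overlapped throughout. The difference in the mean of both genotypes was 0.11 (95% interval -0.23 to 0.45, adjusted p = 0.727), so a shift of receptor RNA within that interval was not resolved. The array held another, dimmer Nr3c1 feature, whose difference in the mean of both genotypes was 0.02. The 2 features differed in the genotype comparison in normoxia, at -0.13 for the brighter and 0.51 for the dimmer.

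Hsd11b1, the enzyme that regenerates active corticosterone, was 3.06-fold higher in hyperoxia in the mean of both genotypes. It read 8.79, 6.54, 6.07 and 6.28 in wild-type normoxia and 6.39, 5.93, 5.93 and 5.79 in Fgf10+/- normoxia. In wild-type hyperoxia it read 8.77, 8.10, 7.94, 6.77, 8.77 and 7.71, and in Fgf10+/- hyperoxia 7.93 and 8.36. All 6 wild-type hyperoxia samples were above the wild-type normoxia median, but none was above wild-type normoxia replicate 1. Both Fgf10+/- hyperoxia samples were above all 4 Fgf10+/- normoxia samples, and 25.9% of all genes had Fgf10+/- groups that did not overlap, counting both directions. The difference was 1.61 on the log2 scale in the mean of both genotypes (SE 0.39, 95% interval 0.79 to 2.44, adjusted p = 0.0139). In wild type it was 1.09 (SE 0.47, adjusted p = 0.223) and in Fgf10+/- 2.14 (SE 0.62, adjusted p = 0.0853). Without wild-type normoxia replicate 1 the wild-type difference was 1.71 (adjusted p = 0.0144) and that in Fgf10+/- stayed at 2.14 (adjusted p = 0.0181). Without Fgf10+/- hyperoxia replicate 2, the call in the mean of both genotypes was lost (1.51, adjusted p = 0.0793).

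The array carried 10 features for Hsd11b1, which gives a view of measurement error. Within an array they spread with a median SD of 0.23, the highest being 0.97 in Fgf10+/- normoxia replicate 1. The SD between samples, for the mean of the 10 features, was 1.36 in wild-type normoxia, where replicate 1 stood at 8.66 and the others between 5.79 and 6.12. It was 0.68 in wild-type hyperoxia, 0.32 in Fgf10+/- hyperoxia and 0.25 in Fgf10+/- normoxia, where the features of an array spread with SDs of 0.17 to 0.97. Over the 10 features the wild-type difference in hyperoxia ranged from 1.09 to 1.29 and the Fgf10+/- difference from 1.51 to 2.98. The feature with the highest mean, used in the fit, thus gave the lowest wild-type value.

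Hsd11b1 followed the level of mesenchymal markers from array to array. After the 4 group means were taken off, its deviations correlated with those of the mean of 10 fibroblast markers at r = 0.94 over 16 arrays (rho 0.96, r = 0.88 without the 2 arrays farthest from the median). The fibroblast mean (10 of 10 markers measured) ranged from 7.71 to 10.35 in wild-type normoxia, 7.85 to 8.62 in Fgf10+/- normoxia, 8.58 to 9.81 in wild-type hyperoxia and 8.72 to 9.67 in Fgf10+/- hyperoxia. The mean of smooth muscle and pericyte markers (10 of 10) ranged from 6.55 to 9.38, 6.43 to 7.24, 7.50 to 8.67 and 7.77 to 7.79 in the same order. Wild-type normoxia replicate 1, the normoxia sample with high Hsd11b1, was also the highest in both lists, at 9.86 for their joint mean against 7.13 to 7.55 in the other 3 samples of its group. With that joint mean as a covariate, the difference in the mean of both genotypes was 0.65 (adjusted p = 0.0652).

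**Figure D2:**
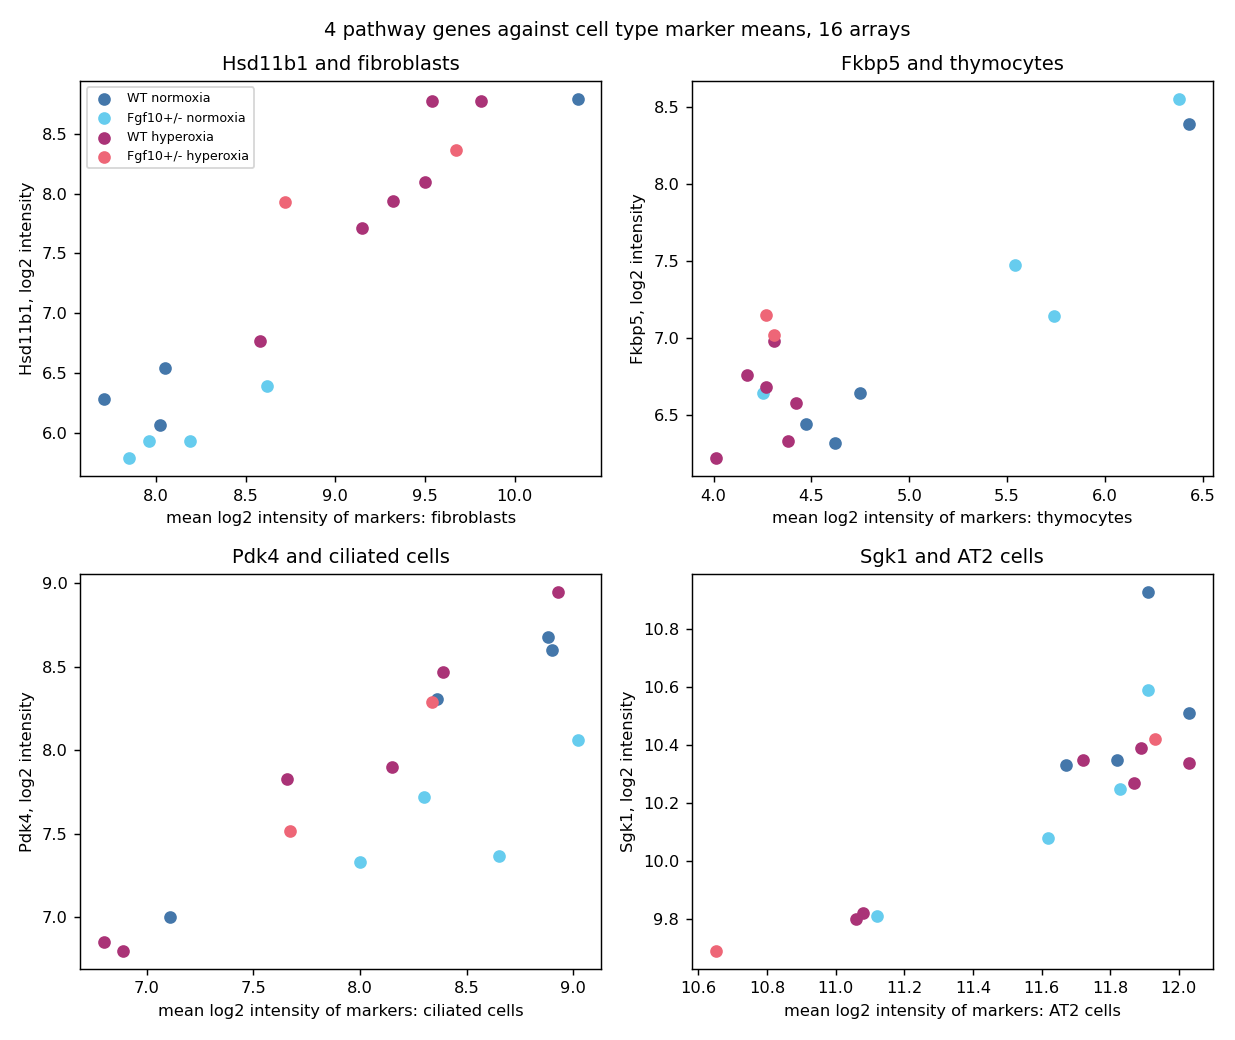
Hsd11b1, Fkbp5, Pdk4 and Sgk1 (y axes, log2 intensity) against the mean log2 intensity of the markers of a cell type (x axes) in 16 arrays, coloured by group. Hsd11b1 rises with fibroblast markers in normoxia and hyperoxia arrays alike, and Fkbp5 exceeds 8 only on the arrays with a thymocyte mean above 6.

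Among the targets, Zbtb16 was the one called lower in the mean of both genotypes. Klf9, described below, differed by -0.61 there without a call. Zbtb16 encodes a zinc-finger transcriptional repressor that glucocorticoids induce in many tissues. It read 6.55, 6.72, 6.69 and 6.43 in wild-type normoxia and 5.84, 6.61, 6.02 and 6.24 in Fgf10+/- normoxia. In wild-type hyperoxia it read 6.23, 5.95, 6.13, 6.12, 5.28 and 6.33, and in Fgf10+/- hyperoxia 5.58 and 5.63. All 6 wild-type and both Fgf10+/- hyperoxia samples were below all normoxia samples of their own genotype. Of all genes, 7.16% had groups that did not overlap in wild type and 25.9% in Fgf10+/-, counting both directions. Across genotypes the groups overlapped. The difference in the mean of both genotypes was -0.58 (SE 0.18, 95% interval -0.95 to -0.21, adjusted p = 0.0414), a level 1.5-fold lower. It was alike in wild type (-0.59, adjusted p = 0.142) and Fgf10+/- (-0.57, adjusted p = 0.318), where it did not pass.

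The call for Zbtb16 lay close to the threshold. It was lost when any one of 9 arrays was left out, with a difference of -0.51 to -0.61 and an adjusted p of 0.0513 to 0.136: each wild-type normoxia replicate, Fgf10+/- normoxia replicates 2 and 4, wild-type hyperoxia replicate 2 and both Fgf10+/- hyperoxia replicates. It was also lost in 6 of 11 other settings (-0.64 to -0.48, adjusted p 0.064 to 0.254), among them both marker covariates and median centring. Its deviations followed none of 12 cell type lists closely, the highest being r = 0.34 with club cells (r = 0.51 without the 2 arrays farthest from the median).

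Klf9, a zinc-finger factor induced by the receptor and by thyroid hormone, was lower in wild-type hyperoxia by value but did not pass. It read 8.22, 8.77, 9.21 and 7.88 in wild-type normoxia and 7.46, 8.20, 7.98, 8.43, 7.36 and 7.21 in wild-type hyperoxia. All 6 hyperoxia values lay below the normoxia median, 3 of them below all 4 normoxia samples. The difference was -0.75 in wild type (SE 0.29, unadjusted p = 0.0196, adjusted p = 0.178) and -0.61 in the mean of both genotypes (SE 0.24, adjusted p = 0.12). In Fgf10+/- it read 8.91, 8.22, 8.74 and 8.47 in normoxia and 8.33 and 7.89 in hyperoxia, a difference of -0.47 (adjusted p = 0.595).

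Tsc22d3 and Fkbp5, commonly read as reporters of receptor activity, did not pass in any comparison. Tsc22d3 encodes an anti-inflammatory leucine-zipper protein. It lay between 9.38 and 10.10 in wild-type normoxia and between 9.58 and 10 in wild-type hyperoxia. The wild-type difference was 0.00 (95% interval -0.36 to 0.36, adjusted p = 0.996). In Fgf10+/- it read 9.96, 9.60, 9.68 and 9.57 in normoxia and 10.13 and 9.86 in hyperoxia, a difference of 0.30 (SE 0.23, adjusted p = 0.564).

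Fkbp5 encodes a co-chaperone that lowers the receptor's affinity for hormone and so closes a feedback loop. It read 6.64, 6.32, 6.44 and 8.39 in wild-type normoxia and 7.14, 8.55, 6.64 and 7.47 in Fgf10+/- normoxia. Hyperoxia samples lay in a narrower band, between 6.22 and 6.98 in wild type and at 7.02 and 7.15 in Fgf10+/-. The high values were thus in normoxia, and the groups overlapped within each genotype. The difference was -0.36 in wild type (95% interval -1.17 to 0.46, adjusted p = 0.682) and -0.36 in Fgf10+/- (adjusted p = 0.786). The highest Fkbp5 values, 8.39 and 8.55, were on the arrays with the highest thymocyte marker means. The thymocyte mean (10 of 10 markers) was 6.43 in wild-type normoxia replicate 4 and 6.38 in Fgf10+/- normoxia replicate 2. It was 5.74 and 5.54 in Fgf10+/- normoxia replicates 1 and 4, and between 4.01 and 4.42 in wild-type hyperoxia. In Fgf10+/- hyperoxia, where Fkbp5 read 7.02 and 7.15, it was 4.31 and 4.27. The thymocyte list was chosen by an earlier analysis after these data were seen. Of its 10 markers, 1 had a mean of 6 or more. Deviations of Fkbp5 and of the thymocyte mean correlated at r = 0.90 (rho 0.66, r = 0.82 without the 2 arrays farthest from the median). The wild-type difference was 0.13 (no call) without wild-type normoxia replicate 4, and 0.39 with the thymocyte mean as a covariate. Leaving out the 4 arrays highest in thymocyte markers gives the same wild-type value, since replicate 4 is the only wild-type array among them.

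Sgk1 encodes a kinase that raises epithelial sodium transport. It read 10.35, 10.93, 10.51 and 10.33 in wild-type normoxia and 10.35, 10.39, 10.34, 10.27, 9.80 and 9.82 in wild-type hyperoxia. The 6 hyperoxia samples lay below the normoxia median, and the wild-type difference of -0.37 (SE 0.21, adjusted p = 0.392) did not pass. In Fgf10+/- it lay between 9.81 and 10.59 in normoxia and at 10.42 and 9.69 in hyperoxia. Sgk1 followed the mean of the AT2 markers (10 of 10) at r = 0.87 (rho 0.84). That mean ranged from 11.67 to 12.03 in wild-type normoxia, 11.12 to 11.91 in Fgf10+/- normoxia, 11.06 to 12.03 in wild-type hyperoxia and 10.65 to 11.93 in Fgf10+/- hyperoxia.

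Pdk4, a kinase that shuts pyruvate dehydrogenase, and Errfi1, an inhibitor of the epidermal growth factor receptor, varied widely between samples of 1 group. Pdk4 read 7.0, 8.68, 8.60 and 8.31 in wild-type normoxia and 6.85, 7.83, 7.90, 8.95, 6.80 and 8.47 in wild-type hyperoxia. Errfi1 read 11.90, 13.16, 13.23 and 12.34 in wild-type normoxia and 11.75, 12.31, 12.49, 12.72, 11.68 and 12.56 in wild-type hyperoxia. The low wild-type arrays were the same for both: wild-type normoxia replicate 1 and wild-type hyperoxia replicates 1 and 5. In Fgf10+/- Pdk4 lay between 7.33 and 8.06 in normoxia and at 7.52 and 8.29 in hyperoxia, and Errfi1 between 11.46 and 12.63 and at 12.23 and 12.66. The differences in the mean of both genotypes were -0.03 for Pdk4 (SE 0.35, adjusted p = 0.968) and 0.04 for Errfi1 (SE 0.26, adjusted p = 0.953). The means of ciliated cell markers (8 of 8), with which both correlated, ranged from 7.11 to 8.90 in wild-type normoxia, 8.0 to 9.02 in Fgf10+/- normoxia, 6.80 to 8.93 in wild-type hyperoxia and 7.67 to 8.34 in Fgf10+/- hyperoxia.

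**Figure D3:**
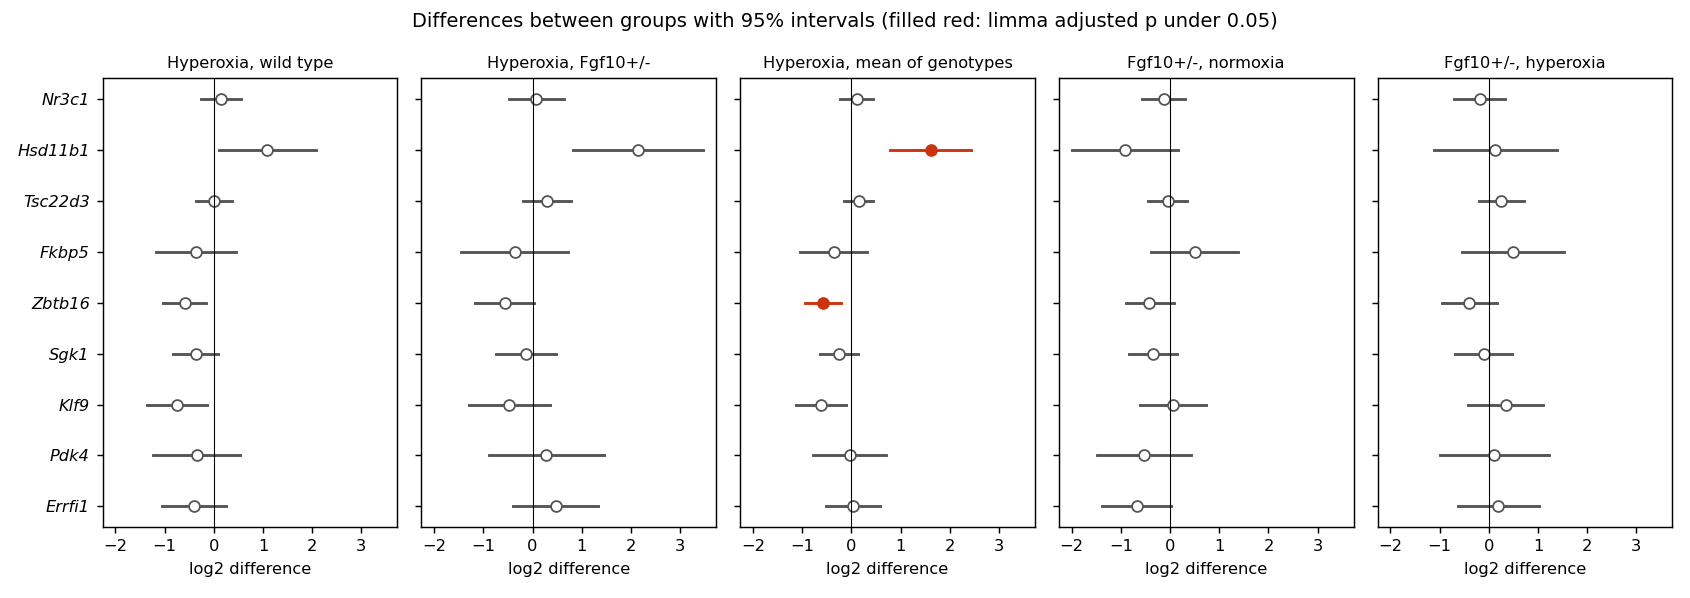
Differences between groups for the 9 genes (x axes, log2; points with 95% intervals from the limma fit) in 5 comparisons; filled red points have an adjusted p under 0.05. Hsd11b1 at 1.61 and Zbtb16 at -0.58 in the mean of both genotypes are the filled points, and the genotype panels have none.

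Genotype was compared within each oxygen condition, and the interaction asked whether hyperoxia acted differently in Fgf10+/- pups. In normoxia 0 of 9 genes were called, against 2 of 20725 genes (0.00965%), and at an unadjusted p under 0.05 also 0 of 9, against 6.03% of all genes. In hyperoxia 0 of 9 were called, against 0 of all genes (0%), and 0 of 9 were under an unadjusted p of 0.05, against 4.37%. For the interaction 0 of 9 were called, against 0.00965%, and 0 of 9 were under an unadjusted p of 0.05, against 4.11%. Hsd11b1 had a value of -0.91 for Fgf10+/- minus wild type in normoxia (95% interval -1.99 to 0.17, adjusted p = 0.878), where wild-type replicate 1 is the high sample. In hyperoxia the genotypes differed by 0.13 for Hsd11b1 (95% interval -1.11 to 1.38, adjusted p = 1). Zbtb16 had a value of -0.42 in normoxia (95% interval -0.90 to 0.07) and of -0.40 in hyperoxia (95% interval -0.96 to 0.16). Errfi1 had a value of -0.68 in normoxia (95% interval -1.39 to 0.02, adjusted p = 0.827). Fkbp5 did not overlap between genotypes in hyperoxia, as was true of 6.99% of all genes, with a difference of 0.49 (95% interval -0.54 to 1.52). The interaction was 1.05 for Hsd11b1 (95% interval -0.60 to 2.69) and 0.02 for Zbtb16 (95% interval -0.72 to 0.76). With 2 Fgf10+/- hyperoxia samples these intervals are wide, and a missing call does not show that the genotypes act alike.

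The 9 genes did not vary as 1 unit. Over the 16 deviations from group means, Pdk4 and Errfi1 correlated at r = 0.87 (rho 0.87), Sgk1 and Klf9 at r = 0.65 (rho 0.60) and Nr3c1 and Hsd11b1 at r = 0.63 (rho 0.59). Hsd11b1 and Pdk4 went opposite ways, at r = -0.82 (rho -0.76). Fkbp5 and Tsc22d3, both commonly used as reporters, correlated at r = 0.13 (rho 0.09). These values describe the arrays and carry no test, since all genes of an array share its RNA and cell mixture.

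Most of the 9 genes tracked a marker list of some cell type. Pdk4 followed ciliated cell markers at r = 0.96 and club cell markers at r = 0.92, and Errfi1 followed ciliated cell markers at r = 0.93. Nr3c1 followed erythroid markers (5 of 7 measured) at r = 0.83, and Klf9 went against T and NK cell markers (7 of 8 measured) at r = -0.80. Tsc22d3 reached r = 0.64 with smooth muscle and pericyte markers. The erythroid mean ranged from 7.98 to 10.26 in wild-type normoxia, 8.61 to 10.13 in Fgf10+/- normoxia, 8.04 to 10.40 in wild-type hyperoxia and 9.30 to 9.62 in Fgf10+/- hyperoxia. The T and NK cell mean ranged from 6.58 to 9.58, 6.44 to 9.55, 6.38 to 8.06 and 6.85 to 7.05 in that order. High values of this kind were common on these arrays: over the 8299 genes with a mean of 6 or more, the median of the highest absolute r with any of the 12 lists was 0.67, and 8.42% of genes exceeded 0.9. What part these cell types have in the levels was not tested. The covariate fits cannot decide it, since the marker means themselves differed with oxygen. The thymocyte mean averaged 5.07 in wild-type and 5.48 in Fgf10+/- normoxia, against 4.26 and 4.29 in hyperoxia. The fibroblast mean averaged 8.53 and 8.15 in normoxia, against 9.32 and 9.20 in hyperoxia.

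**Figure D4:**
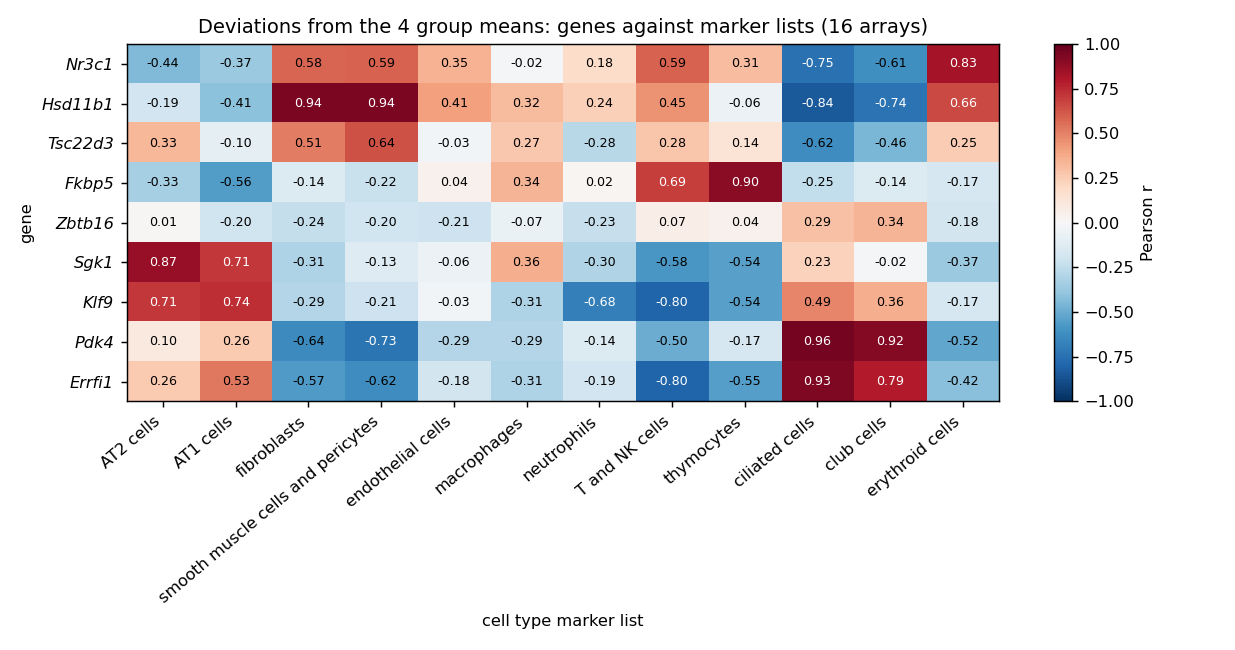
Pearson correlation (colour and printed value) of each gene's deviations from the 4 group means with those of the mean of 12 cell type marker lists, over 16 arrays. Hsd11b1 reaches 0.94 with fibroblast and smooth muscle markers, Fkbp5 0.90 with thymocyte markers, and Zbtb16 stays at or below 0.34.

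Other genes of the pathway were taken in 3 lists. The receptor and steroid handling list (7 of 8 measured, 1 with a mean of 6 or more) held 0 called genes in all 6 comparisons. In the mean of both genotypes 1 of its members was under an unadjusted p of 0.05, against 25.8% of all genes, and its median difference was -0.01. H6pd, which supplies the cofactor of the Hsd11b1 enzyme, and Hsd11b2, whose enzyme inactivates corticosterone, are given for their roles and were picked after their values were seen. H6pd was 8.38 ± 0.47 in wild-type normoxia (SD, n = 4) and 8.65 ± 0.25 in wild-type hyperoxia (n = 6), and went from 8.44 ± 0.32 (n = 4) to 8.30 ± 0.08 (n = 2) in Fgf10+/-. The differences were 0.27 and -0.15, or 0.06 in the mean of both genotypes (adjusted p = 0.874). Hsd11b2 was dim, at 3.51 ± 0.43 and 3.82 ± 0.52 in wild type and 4.05 ± 0.91 and 4.02 ± 0.39 in Fgf10+/-, with a difference of 0.14 in the mean of both (adjusted p = 0.821).

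Of the receptor's chaperones and coregulators (15 of 16 measured), 2 were called higher and 5 lower in the mean of both genotypes, with a median difference of -0.36. The share of all genes called was 4.97% higher and 6.14% lower. Stip1, the adaptor that joins Hsp70 to Hsp90, fell from 8.01 ± 0.18 (SD, n = 4) to 7.19 ± 0.27 (n = 6) in wild type and from 7.90 ± 0.22 to 7.23 ± 0.05 (n = 2) in Fgf10+/-. Its difference was -0.74 (adjusted p = 0.00426). Fkbp4, the co-chaperone that carries the receptor to the nucleus, fell by 0.72 (adjusted p = 0.0127), Dnajb1, an Hsp40 protein, by 0.92 (adjusted p = 0.0224), and Hsp90ab1, a core Hsp90, by 0.48 (adjusted p = 0.032). Crebbp, a histone acetyltransferase, was 0.87 higher (adjusted p = 0.0235). Hspa8, the constitutive Hsp70, was 0.74 higher on the feature used (adjusted p = 0.00674), but its other 2 features gave -0.50 and -0.23, so its direction is not settled. In wild type alone 2 were called higher and 1 lower of these 15, in Fgf10+/- 0 were, and the medians were -0.37 and -0.33. The shares of all genes called were 1.77% higher and 1.36% lower in wild type.

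These calls depended on the setting, and most of them on single arrays. In the mean of both genotypes, those for Stip1 and Hspa8 held with any 1 of the 16 samples left out. Over 11 alternatives Stip1 was called in 9, Hspa8 in 8, Fkbp4 and Dnajb1 in 7, Crebbp in 6 and Hsp90ab1 in 5. The call for Hsp90ab1 was lost without wild-type normoxia replicate 3 or 4, Fgf10+/- normoxia replicate 2 or either Fgf10+/- hyperoxia sample (-0.53 to -0.43, adjusted p 0.0524 to 0.147). Those for Dnajb1 (adjusted p = 0.0928 and 0.0791) and Crebbp (adjusted p = 0.107 and 0.0716) were lost without either Fgf10+/- hyperoxia sample, and that for Fkbp4 without replicate 2 of that group (-0.58, adjusted p = 0.105). In the mean of both genotypes the list had 3 called genes without Fgf10+/- hyperoxia replicate 1 and 2 without replicate 2. The wild-type count was 0 without wild-type normoxia replicate 2 or 4.

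The other 24 glucocorticoid-induced genes, all measured, included 2 called higher and 5 called lower in the mean of both genotypes, with a median difference of -0.27 and 19 of 24 below 0, where 56.5% of all genes were below 0. Nfkbia, the inhibitor that holds NF-kB in the cytosol, fell from 13.13 ± 0.34 (SD, n = 4) to 12.44 ± 0.11 (n = 6) in wild type and from 13.33 ± 0.24 (n = 4) to 12.24 ± 0.13 (n = 2) in Fgf10+/-. Its difference was -0.89 (adjusted p = 0.00108). Ddit4, an inhibitor of mTORC1 signalling, fell by 1.39 (adjusted p = 0.00753), Cdkn1c, a cyclin-dependent kinase inhibitor, by 0.99 (adjusted p = 0.0178), and Glul, glutamine synthetase, by 0.79 (adjusted p = 0.00962). With the thymocyte mean as a covariate the difference for Ddit4 was -0.68 (adjusted p = 0.198). Its deviations correlated with that mean at r = 0.75 (rho 0.60, r = 0.46 without the 2 arrays farthest from the median). Without Fgf10+/- hyperoxia replicate 2, Ddit4 (-1.30, adjusted p = 0.0515) and Cdkn1c (-1.05, adjusted p = 0.0606) were not called; without replicate 1, Cdkn1c (-0.94, adjusted p = 0.0884) and Glul (-0.66, adjusted p = 0.0808) were not.

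Angptl4, a secreted inhibitor of lipoprotein lipase, was 1.24 higher (adjusted p = 0.0275), with 9.21 ± 1.11 (SD, n = 4) and 10.18 ± 0.60 (n = 6) in wild type. Its deviations correlated with the fibroblast mean at r = 0.80, and with the fibroblast and smooth muscle mean as a covariate the difference was 0.54 (adjusted p = 0.287). Its call was lost without wild-type normoxia replicate 2 (1.14, adjusted p = 0.0544) and without either Fgf10+/- hyperoxia sample (1.25, adjusted p = 0.0963, and 1.24, adjusted p = 0.0992). Fam107a, a stress-induced actin-binding protein, was 2.71 higher on the feature used (adjusted p = 0.00262). In wild type that feature was at 5.48 ± 0.57 in normoxia, which is dim, and 8.81 ± 1.17 in hyperoxia, a difference of 3.33 (adjusted p = 0.00473). Its other feature, dimmer at a mean of 3.98, gave -0.40 in wild type and 0.19 in the mean of both genotypes. With the mean of both features the differences were 1.47 in wild type (adjusted p = 0.0423) and 1.45 in the mean of both genotypes (adjusted p = 0.00682), so the size is not settled. The wild-type call was lost without wild-type normoxia replicates 1 and 4 (2.99, adjusted p = 0.0807). Fam107a and Crebbp also tracked 8 features that were chosen, from earlier results of these arrays, as high together in hyperoxia, at r = 0.85 and 0.88. The mean of those 8 was 7.11 to 8.17 in normoxia and 10.27 to 12.86 in hyperoxia. Among the called chaperones and coregulators, deviations of Stip1 went against that mean at r = -0.80, Hsp90ab1 at -0.68, Dnajb1 at -0.62 and Fkbp4 at -0.40. Hspa8 reached r = 0.26 and Nrip1 -0.04. The part of these 8 features in any of these genes was not tested.

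Within wild type, 1 of the 24 was called higher, Fam107a, and 1 lower, Nfkbia (-0.70, adjusted p = 0.0407), where 1.77% of all genes were called higher and 1.36% lower. The wild-type Nfkbia call was lost when any one of 11 arrays was left out (-0.73 to -0.54, adjusted p 0.0523 to 0.11): wild-type normoxia replicates 2 and 3, Fgf10+/- normoxia replicate 4 and all 8 hyperoxia samples. Within Fgf10+/- 0 were higher and 2 lower, Ddit4 (-1.99, adjusted p = 0.0412) and Nfkbia (-1.09, adjusted p = 0.024), where 1.18% of all genes were called higher and 1.26% lower. The Ddit4 call was lost without Fgf10+/- normoxia replicate 1, 2 or 4, wild-type hyperoxia replicate 2 or 6, or either Fgf10+/- hyperoxia sample (-2.16 to -1.69). With the thymocyte mean as a covariate the Ddit4 difference was -1.15 (adjusted p = 0.231). It was -1.03 without the 4 arrays highest in thymocyte markers, a fit that leaves 1 Fgf10+/- normoxia sample, replicate 3. The Nfkbia call in Fgf10+/- was lost without Fgf10+/- normoxia replicate 1 or 4 or either Fgf10+/- hyperoxia sample (-1.18 to -0.99, adjusted p 0.0532 to 0.187). The genotype comparisons and the interaction had 0 called genes in each of the 3 lists.

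**Figure D5:**
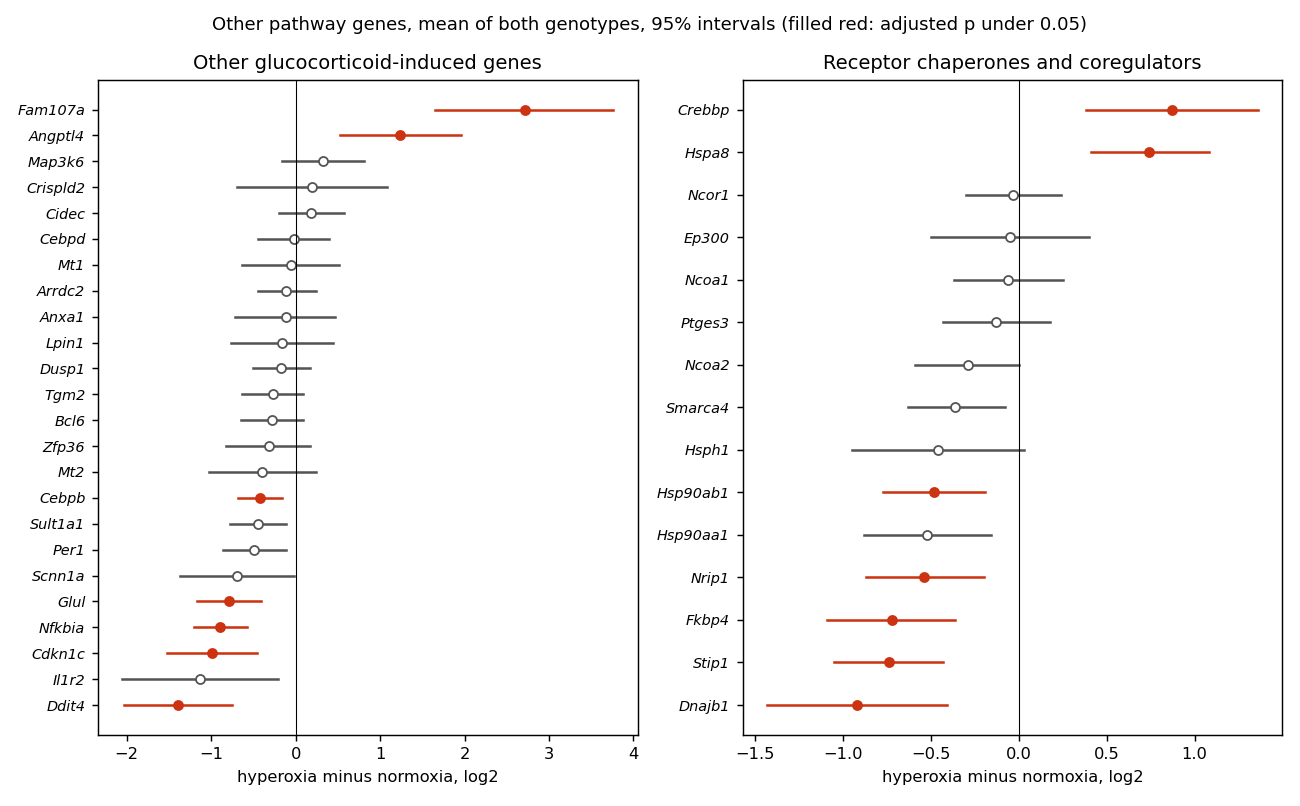
Hyperoxia minus normoxia in the mean of both genotypes (x axes, log2, with 95% intervals) for 24 other glucocorticoid-induced genes and 15 receptor chaperones and coregulators; filled red points have an adjusted p under 0.05. Each panel has 2 filled points above 0 and 5 below, and the widest shift upward is Fam107a at 2.71.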

How the data were processed

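The authors deposited 1 table of log2 intensities for 16 arrays, with 62976 features. The log2 scale was taken from the values (-0.4 to 15.98), with the scale, software, background correction and AT2 cell purification not given in the sources used here. Sorted values differed between arrays by at most 0.204, so the deposited table had a shared distribution. It carries neither detection flags nor slide or scan labels, so whether normoxia and hyperoxia arrays shared a slide or run is not known. After 65 features with a missing value were left out, 31439 named features covered 20725 genes. RefSeq tables (GRCm38.p6) named 29027 of them by accession, 2059 by symbol and 348 by synonym, and 5 kept the listed name. The feature with the highest mean stood for a gene. Groups came from the titles.

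Group means were fitted on all 16 samples with limma 3.58.1 in R 4.3.3, without covariates. P-values were adjusted by the Benjamini-Hochberg method over 20725 genes, with calls at an adjusted p under 0.05. The fit was also run on simulated data with noise drawn independently for each gene. Genes on these arrays vary together, so that run does not show how well the calls here hold. The labels do not say whether replicates came from separate animals, so p-values measure the spread between these samples. Arrays have no read depth, and their number limits the precision. Alternatives were another centring and normalization, the mean of features, a filter at a mean of 6, other priors, array weights, the groups of a comparison alone, a replicate block, marker means as covariates, and samples left out.

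The 9 genes, the marker and pathway lists and the alternatives were chosen with earlier results of these data known. Named were the 9 genes with all features, up to 6 called genes per pathway list and comparison by smallest p, and, for Fkbp5 and Tsc22d3, the 5 genes with the most alike deviations from group means. Nr3c1 and Zbtb16 promoters were not used here.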

Additional observations from a re-analysis of the deposited data

Results flagged for a closer look

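In 4 of 69 gene and group sets checked, 1 sample stood apart from the others of its group by Dixon's criterion, which flags about 1 in 20 by chance. Fkbp5 was 8.39 in wild-type normoxia replicate 4, where the other 3 samples lay between 6.32 and 6.64; this is the array with the highest thymocyte marker mean, 6.43. Zbtb16 was 5.28 in wild-type hyperoxia replicate 5, where the others lay between 5.95 and 6.33. Fkbp4 was 6.64 in wild-type normoxia replicate 1, where the others lay between 6.98 and 7.02. Fam107a was 8.36 in Fgf10+/- normoxia replicate 1, where the others lay between 5.55 and 5.90. The cause was not tested for any of these.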

How the results depend on the processing

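No difference described above changed sign while called. In the mean of both genotypes, Hsd11b1 ranged from 0.65 to 1.92 over 11 alternatives and was called in 8, and Zbtb16 from -0.64 to -0.48 and was called in 5. Of the 9 genes, 2 were called there. The count was 1 with each array centred on its median, and 0 with the thymocyte mean or the fibroblast and smooth muscle mean as a covariate. The genes called over the whole table fell from 2302 to 854 and 1101 with these covariates. Leaving out the 4 arrays highest in thymocyte markers, an alternative added after the data were seen, leaves 1 Fgf10+/- normoxia sample. Leaving out either Fgf10+/- hyperoxia sample leaves 1 in that group. Fewer calls in such fits cannot be told apart from the loss of samples. In Fgf10+/- the count rose from 0 to 1, Hsd11b1, with only genes of a mean of 6 or more (792 genes called against 507), with only the groups of the comparison (261), with array weights, and without wild-type normoxia replicates 1 and 4, also added later. With 1 sample left out at a time, the count was 0 to 1 in wild type, 0 to 1 in Fgf10+/- and 0 to 2 in the mean of both.

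Of the chaperones and coregulators, 3 were called in wild type. The count was 5 with the filter at a mean of 6, 0 with either covariate, 1 without the 4 arrays high in thymocyte markers, 0 without wild-type normoxia replicates 1 and 4, and 0 to 3 with 1 sample left out. In Fgf10+/- it was 0, and 1 with the filter. In the mean of both it was 7, then 1 with the thymocyte covariate, 2 with the fibroblast and smooth muscle covariate, 0 without the 4 arrays, 3 without the 2 wild-type arrays, and 2 to 8 with 1 sample left out. Of the other glucocorticoid-induced genes, 2 were called in wild type. The count was 1 with median centring, with only the groups compared, with the fibroblast and smooth muscle covariate and without the 4 arrays, 4 without the 2 wild-type arrays, and 1 to 4 with 1 sample left out. In Fgf10+/- it was 2, then 1 with median centring or the thymocyte covariate, 0 with only the groups compared, with the fibroblast and smooth muscle covariate or without the 4 arrays, and 0 to 2 with 1 sample left out. In the mean of both it was 7, then 4 with the thymocyte covariate, 3 with the other covariate, 3 without the 4 arrays, and 3 to 9 with 1 sample left out. The cause of these changes was not tested, and some settings also had fewer samples.

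The labels number replicates from 1 in every group. Of 18 same-numbered pairs, 9 correlated above 0.1 (range -0.47 to 0.52), and 11 of 30 nearest partners had the same number. What chance alone would give was not worked out, so these counts do not decide whether the numbers mark pairs. The main fit did not use them as pairs. Whether same-numbered samples share a litter or batch is not known. With the replicate block, 1 of the 9 genes was called in the mean of both genotypes, Hsd11b1, among 1380 genes in all. Under the block the chaperones and coregulators had 0 called in wild type and 2 in the mean of both, and the other glucocorticoid-induced genes 1 in wild type, 0 in Fgf10+/- and 4 in the mean of both.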

Other observations

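Among 8007 genes with a mean of 6 or more, predicted and clone-named genes left out, those whose deviations from the group means were most like those of Fkbp5 over 16 arrays were Shmt2 (r = 0.94), Snu13 (0.93), Mybbp1a (0.92), Eif2ak3 (0.92) and Nop56 (0.91). For Tsc22d3 they were Lmbr1l (r = 0.84), Eno3 (0.83), Srsf3 (0.83), Pptc7 (0.83) and Chsy1 (0.79). The lists share no gene. These correlations were picked as the highest of all genes and describe these arrays only.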
